A study of Mus musculus with 8 samples.

Results

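The B cell lineage genes *Pax5*, *Ebf1*, *Pou2af1*, *Vpreb1*, *Igll1*, *Cd79a*, *Cd79b*, *Blnk* and *Cd22* were examined for histone H3 acetylated at lysine 27 (H3K27ac) in P5424 cells, a mouse line that resembles T cell precursors. These 9 genes were chosen by name, for their known roles in B cells, and not by any measured value. Earlier results of these data were known when they were chosen. They were found among 20923 protein-coding genes with a known strand, out of 21631 on chromosomes 1 to 19 and X. Each gene was taken with its body and 20 kb on either side, hereafter its window, and its start was the outer 5′ end of the RefSeq gene on GRCm38. *Vpreb1* and *Igll1* lie beside each other and share every peak of their windows, so the 9 genes make 8 separate windows of 1018737 bp in all.

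The study deleted IkE120, an enhancer upstream of *Ikzf1*, from the genome of P5424 cells and mapped H3K27ac by ChIP-seq in wild-type (wt) and deleted (ΔIkE120) cells. The ΔIkE120 cells are 1 clone with a homozygous deletion made with CRISPR/Cas9, while the wt cells carry no deletion. Each genotype has 1 H3K27ac library, which are 2 of the 8 libraries of the series, so no value below has a replicate and no difference was tested. Whether the ChIP-seq cells had been stimulated is not given in the sources used here. Effects of the deletion, of the clone and of the library cannot be told apart.

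B and T lymphocytes come from shared progenitors, and the B fate is set by a small group of transcription factors, among them Ebf1 and Pax5, which switch on the genes of the pre-B cell receptor and of its signalling chain. Ikaros, the product of *Ikzf1*, acts in both lineages. H3K27ac marks promoters and enhancers in use, so genes of another lineage are commonly without it. For these genes the question was which of them had a peak in a T precursor line, and whether the peaks differed between wt and ΔIkE120 cells.

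The authors' peak lists held 34553 peaks in wt and 29902 in ΔIkE120 cells. For each peak they give a fold enrichment over background and a -log10 q, and the lowest -log10 q was 1.02 in wt and 1.03 in ΔIkE120 cells. A gene without a peak is therefore a gene where none passed this limit, not a gene shown to lack the mark. The depth of the libraries is not given in the sources used here, and the height of the signal was not compared between genotypes. Presence, number and length of peaks were compared, and -log10 q was ranked within a list only. Where -log10 q or fold enrichment is printed for both genotypes, each value describes its own list and no difference is read from the pair.

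The labels were checked at the deleted enhancer and at lineage markers. In wt cells, a peak of 1644 bp at chr11:11563705-11565348 lay over IkE120, with a -log10 q of 9.83. In ΔIkE120 cells no peak lay over it, and the nearest, at chr11:11564652-11565363, began 78 bp away, with a -log10 q of 11.99. IkE120 was placed here at the interval the paper used for chromatin accessibility. That interval is not the deleted segment, so the distance is not one from the edge of the deletion. Of 21 T lineage genes, 20 had a peak within 1 kb of the start in wt and 19 in ΔIkE120 cells, so that most of the defining markers of the line carried the mark in both libraries. The highest -log10 q at the start in wt was that of *Cd3e* (24.0, and 15.8 in ΔIkE120 cells), followed by *Cd3g* (19.4 and 12.4), *Lat* (19.2 and 17.4) and *Cd3d* (12.2 and 8.97), all parts of T cell receptor signalling. *Il2ra*, a chain of the IL-2 receptor, was without a start peak in either list, and *Cd2* had one in wt alone.

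Most of the 9 B lineage genes were without a peak at the start. A peak within 1 kb of the start was found for 3 of 9 genes in wt cells (*Ebf1*, *Igll1* and *Pou2af1*) and for 2 of 9 in ΔIkE120 cells (*Ebf1* and *Pou2af1*). Among all 20923 genes the shares were 45.0% in wt and 44.3% in ΔIkE120 cells. With 9 genes, these counts are no result about the B lineage genes. *Pax5*, *Cd79a*, *Cd79b*, *Blnk*, *Vpreb1* and *Cd22*, 6 of 9, had no start peak in either list, as had 54.5% of all genes. *Igll1* was the 1 member with a start peak in wt alone, a pattern found for 1.12% of all genes. The calls of *Ebf1*, *Igll1* and *Vpreb1* depended on the limits, while those of the other 6 genes were the same in every setting tried. With 500 bases on either side in place of 1 kb, or with the weaker part of each list left out (a -log10 q under its median), *Pou2af1* alone had a start peak, in wt as in ΔIkE120 cells. With 2.5 kb, *Vpreb1* was added in each list (4 and 3 genes), with at least 200 bases covered near the start *Igll1* was lost (2 and 2), and with lists of equal length the calls stayed at 3 and 2.

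**Figure D1:**
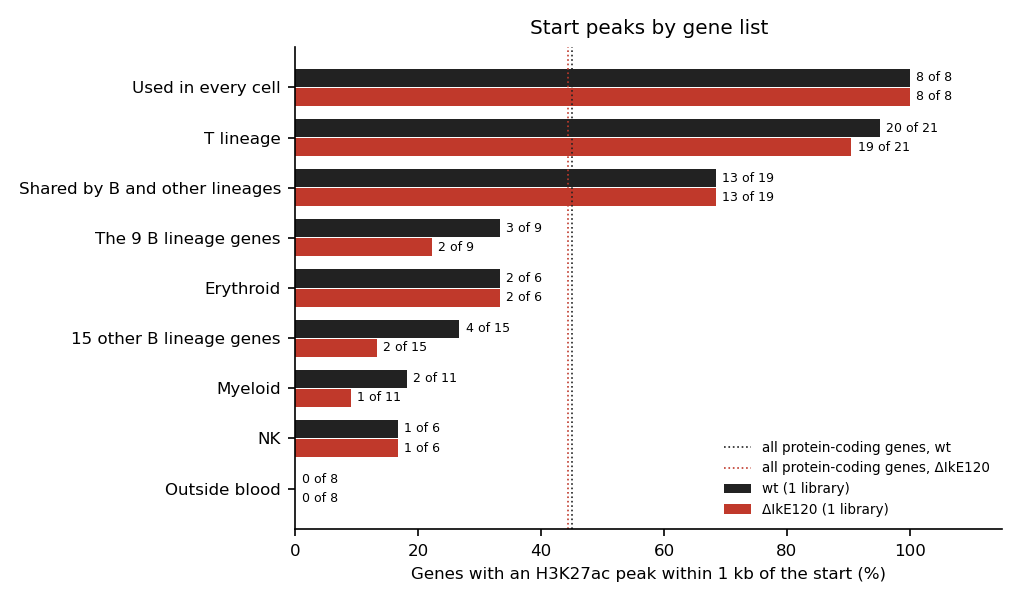
Share of genes (%, horizontal axis) with an H3K27ac peak within 1 kb of the start, for 9 gene lists, with wt in black and ΔIkE120 in red (1 library each). Dotted lines give the share over all protein-coding genes, 45.0% and 44.3%, and the B lineage genes are drawn at 3 of 9 and 2 of 9. With so few genes, this is no result about the B lineage genes.

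Each window contains the region at the start and is far longer, so a peak is found more readily in a window than at a start. All 9 genes had a peak in the window in wt cells and 7 of 9 in ΔIkE120 cells, against 67.6% and 66.0% of all genes. With the weaker part of each list left out, the direction turned, with 5 genes in wt and 6 in ΔIkE120 cells. With the whole lists, *Pax5* and *Cd22* were the 2 genes whose window held no peak in ΔIkE120 cells. Most of the peaks in the windows did not overlap the body of the B lineage gene. Of the 17 wt peaks, 4 overlapped the body of a member (*Pax5*, *Ebf1*, *Blnk* and *Pou2af1*), 6 the body of another gene and 7 no gene. The overlap at *Ebf1* was of 2 bases at the end of the gene. Of the 13 ΔIkE120 peaks, 3 overlapped the body of a member (*Ebf1*, *Blnk* and *Pou2af1*), 7 the body of another gene and 3 no gene. In each list, 3 peaks lay within 1 kb of the start of another gene, namely *Rps19*, *Arhgef1* and *Top3b*. The other genes of known strand that start in the windows, *Gm12462*, *Gh*, *C330026H20Rik*, *Ffar3*, *Ffar1* and *D7Ertd128e*, had no start peak in either list.

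The strength of the peaks around the B lineage genes was read within each list. In wt cells they had a median -log10 q of 2.51, where the median of all peaks was 4.12, and 3.86 in ΔIkE120 cells, where it was 4.47. The median of the whole list was reached by 7 of 17 wt peaks and 6 of 13 ΔIkE120 peaks, against about 50% of all peaks by definition, and with so few peaks this is no result about the B lineage genes. Their length was not short, with a median of 625 bp in wt (603 bp over all peaks) and 763 bp in ΔIkE120 cells (628 bp over all peaks). The median distance from a member's start to the nearest peak was 2.87 kb in wt and 4.27 kb in ΔIkE120 cells, against 3.85 kb and 4.64 kb over all genes.

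**Figure D2:**
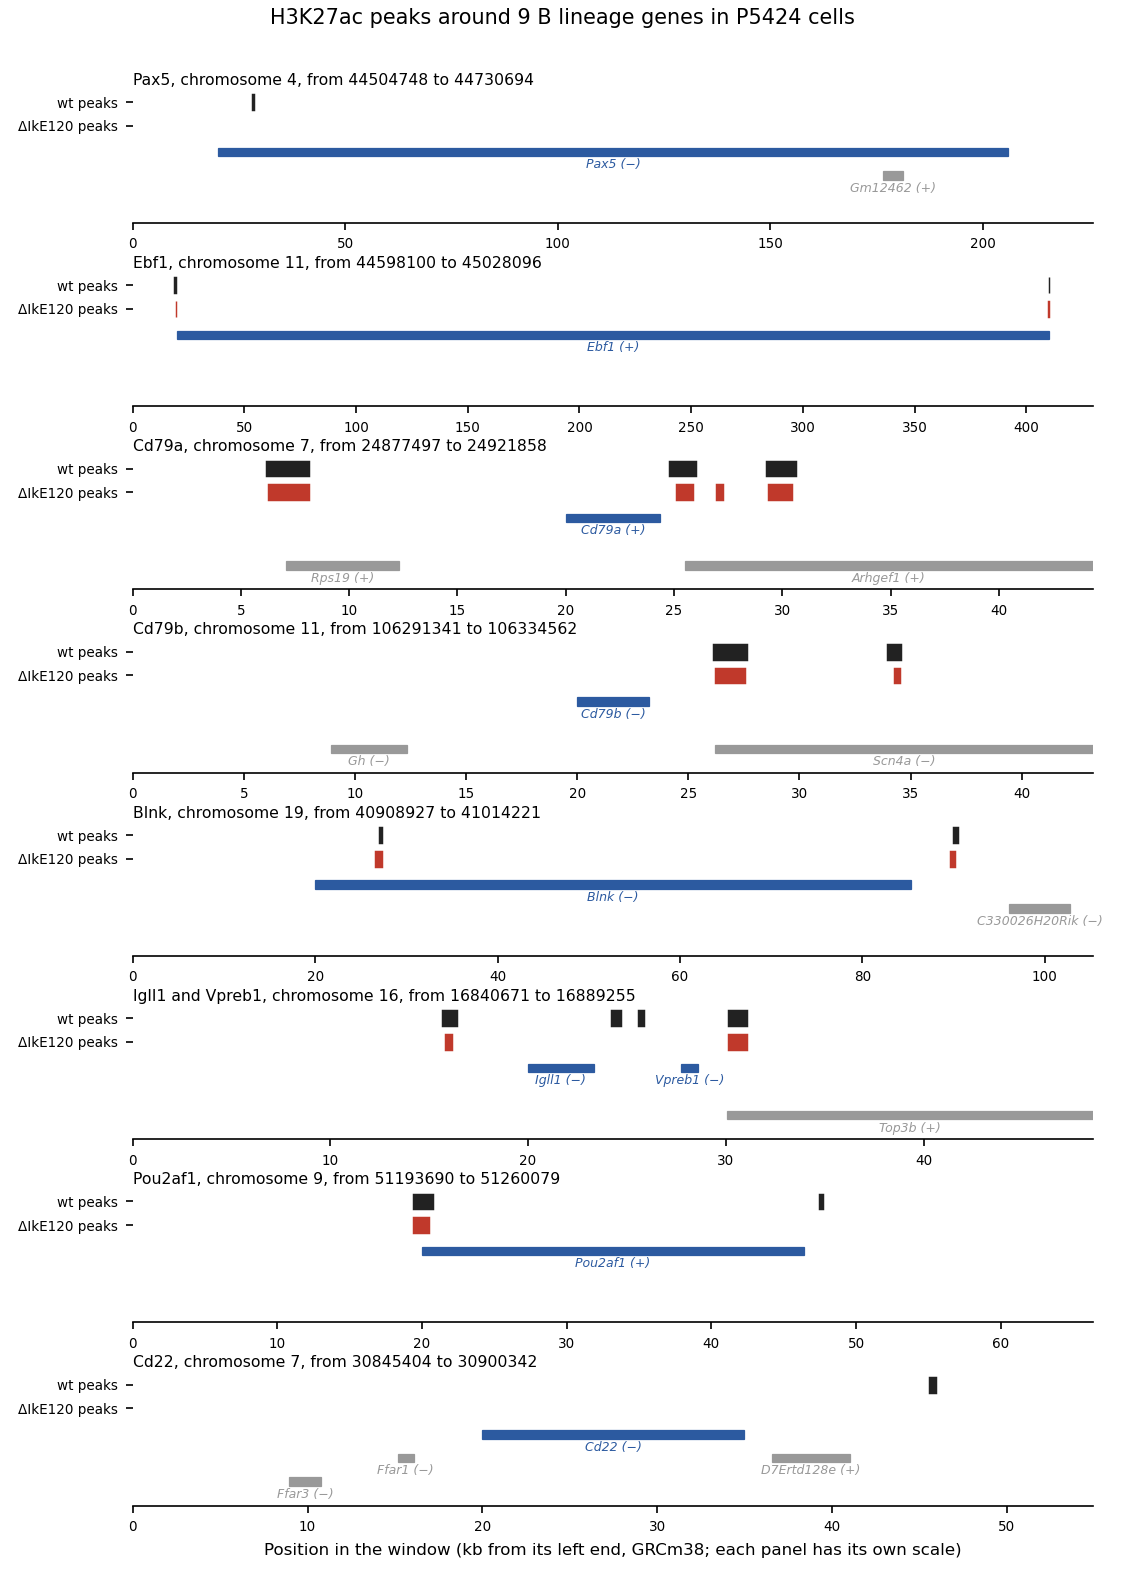
Maps of the 8 windows, to scale, with position in kb from the left end of each window on GRCm38 (horizontal axis, a scale for each panel), wt peaks in black and ΔIkE120 peaks in red, drawn with a thin outline. Blue bars are the B lineage genes, and grey bars are genes that start in the window or are overlapped by a peak, with strand in parentheses; 17 wt and 13 ΔIkE120 peaks are drawn, and only at *Pou2af1* does a peak lie over the start of a B lineage gene.

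Of the genes of transcriptional regulators, *Pou2af1* had peaks over its start and *Ebf1* close to it, while those nearest to *Pax5* were far from its start. Pou2af1 is a coactivator that binds octamer factors on immunoglobulin promoters. At *Pou2af1* (chr9:51213690-51240079, plus strand), a peak of 1360 bp at chr9:51213079-51214438 lay over the start in wt, with a -log10 q of 11.35 and a fold enrichment of 3.57. The ΔIkE120 peak, of 1110 bp at chr9:51213047-51214156, had a -log10 q of 11.65 and a fold enrichment of 3.94. These are ordinary start peaks, since 43.5% of the genes with a start peak had a lower -log10 q at the start in wt and 42.8% in ΔIkE120 cells. A further peak of 257 bp, at chr9:51241128-51241384 just past the 3′ end of the gene, was found in wt alone (-log10 q 2.48). The *Pou2af1* window thus had 1617 covered bases in wt and 1110 in ΔIkE120 cells.

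Ebf1 is the factor that, with the E proteins, starts the B cell programme. At *Ebf1* (chr11:44618100-45008096, plus strand), a wt peak of 758 bp at chr11:44616806-44617563 ended 537 bp upstream of the start, with a -log10 q of 2.74. The ΔIkE120 peak at chr11:44617295-44617547 was 253 bp long, lay wholly within the wt peak and ended 553 bp upstream, with a -log10 q of 2.28. Both peaks stood near the lower end, as 3.15% of genes with a start peak had a lower value in wt and 1.68% in ΔIkE120 cells. The only other peak of this long window touched the 3′ end of the gene, at chr11:45008095-45008324 in wt (230 bp, -log10 q 2.51) and chr11:45007898-45008246 in ΔIkE120 cells (349 bp, -log10 q 7.13). Nothing between, over 390.0 kb of gene, was called in either list. *Ebf1* had 988 covered bases in wt and 602 in ΔIkE120 cells, and the direction turned to 197 bases more in ΔIkE120 cells within the gene body alone. It is on the chromosome of *Ikzf1*, with 32.9 Mb between their starts.

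Pax5 maintains B cell identity once it is set, and represses genes of other lineages. *Pax5* (chr4:44524748-44710694, minus strand) was the member whose start lay farthest from a wt peak, at 45.0 kb. That nearest peak, at chr4:44755726-44757199 in wt and chr4:44755730-44757283 in ΔIkE120 cells, was at the start of *Zcchc7* and outside the window. Within the window, wt cells had 1 peak of 389 bp, at chr4:44532889-44533277 in the gene body, 177 kb from the start and with a -log10 q of 1.84. Only 12.1% of wt peaks had a lower -log10 q. ΔIkE120 cells had no peak in the window, but 1 of 398 bp at chr4:44498045-44498442, 6306 bp beyond its edge on the side of the 3′ end of the gene. At its start, no peak was called for *Pax5* in either genotype. Whether the peaks inside *Pax5*, *Ebf1* and *Blnk* fall in exons or introns was not analysed here.

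The genes of the surrogate light chain, *Vpreb1* and *Igll1*, lie in the window with the largest difference in covered bases between the lists, with fewer in ΔIkE120 cells, though none of its peaks overlaps either gene. Their products pair with the immunoglobulin heavy chain in the pre-B cell receptor, before a light chain is made. *Igll1* (chr16:16860671-16863985, minus strand) had a start peak in wt alone, at chr16:16864844-16865350, 859 bp upstream. It was 507 bp long with a -log10 q of 2.02 and a fold enrichment of 2.62, and 1.34% of the genes with a start peak had a lower -log10 q. A smaller wt peak of 284 bp, at chr16:16866250-16866533, lay 2.27 kb upstream and had no counterpart either (-log10 q 2.13). In ΔIkE120 cells, the peak nearest to the *Igll1* start was 6.81 kb away. Downstream of *Igll1*, a peak was found in both lists, 803 bp long in wt at chr16:16856291-16857093 (-log10 q 4.69) and 367 bp long in ΔIkE120 cells at chr16:16856455-16856821 (-log10 q 2.01).

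*Vpreb1* (chr16:16868401-16869255, minus strand) was just outside the limit for a start peak. The peak nearest to its start was that of *Top3b*, a topoisomerase gene on the opposite strand whose start is 1.47 kb away, and it began 1531 bp from the *Vpreb1* start in wt and 1539 bp in ΔIkE120 cells. This peak was strong in both lists, with a -log10 q of 17.15 at chr16:16870786-16871763 in wt and of 18.18 at chr16:16870794-16871733 in ΔIkE120 cells. The window of each of these genes had 4 peaks and 2572 covered bases in wt, against 2 peaks and 1307 bases in ΔIkE120 cells, a ratio of 0.508. Since they share their peaks, these values count 1 region and not 2 genes.

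The signalling chains of the B cell receptor were without start peaks, and the peaks of their windows overlapped other genes. Cd79a and Cd79b, also called Igα and Igβ, carry the signal of the receptor into the cell. *Cd79a* (chr7:24897497-24901858, plus strand) had the most covered bases of the 9 genes, 4622 in wt and 4106 in ΔIkE120 cells, and 97.3% of all genes had a smaller covered share of their window in wt and 96.5% in ΔIkE120 cells. Its neighbours *Rps19*, a ribosomal protein gene, and *Arhgef1* had start peaks of 1999 bp (-log10 q 13.06) and 1262 bp (-log10 q 6.2) in wt, and of 1894 bp (18.61) and 780 bp (9.72) in ΔIkE120 cells. A further pair of peaks lay inside *Arhgef1*, at chr7:24906750-24908110 in wt and chr7:24906828-24907956 in ΔIkE120 cells. ΔIkE120 cells alone had a peak of 303 bp at chr7:24904440-24904742 (-log10 q 2.14), the only ΔIkE120 peak in the 8 windows without a wt counterpart. No peak overlapped *Cd79a* itself, and the nearest was 4.76 kb from its start in wt and 5.1 kb in ΔIkE120 cells.

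*Cd79b* (chr11:106311341-106314562, minus strand) had no peak in its body either, and both of its peaks lay upstream, over *Scn4a* (chr11:106317545-106365559), a sodium channel gene of muscle. The nearer was 2.87 kb from the *Cd79b* start in wt, at chr11:106317433-106318986 with a -log10 q of 6.22. In ΔIkE120 cells it was 3.0 kb away, at chr11:106317562-106318896 with a -log10 q of 8.52. At this site 64.8% of wt peaks and 71.1% of ΔIkE120 peaks had a lower -log10 q, which made it the strongest site in the windows that was not within 1 kb of another gene's start, apart from the *Pou2af1* start. The farther peak was 625 bp long in wt (-log10 q 1.4) and 271 bp in ΔIkE120 cells (-log10 q 3.17). *Cd79b* had 2179 covered bases in wt and 1606 in ΔIkE120 cells.

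Blnk, the adaptor that links the receptor's kinase Syk to its targets, was the 1 member covered more in ΔIkE120 cells. *Blnk* (chr19:40928927-40994221, minus strand) had 938 covered bases in wt and 1360 in ΔIkE120 cells, with 2 peaks in each list. The peak in the gene body was 329 bp long in wt, at chr19:40935967-40936295 (-log10 q 2.16), and 763 bp in ΔIkE120 cells, at chr19:40935540-40936302 (-log10 q 2.37). The upstream peak was 609 bp long in wt, 4.58 kb from the start (-log10 q 1.93), and 597 bp in ΔIkE120 cells, 4.27 kb from the start (-log10 q 3.08). Each stood low in its list, with 14.4% to 34.1% of the peaks below it, and with the weaker part of each list left out, *Blnk* had no covered bases in either. A run of further peaks began beyond the window, where *Dntt*, the terminal transferase gene of lymphoid precursors, had start peaks 35.1 kb upstream of the *Blnk* start in wt and 35.2 kb in ΔIkE120 cells.

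Cd22 is an inhibitory co-receptor of B cells. *Cd22* (chr7:30865404-30880342, minus strand) had 1 wt peak of 404 bp, at chr7:30890928-30891331, 10.6 kb upstream of the start and with a -log10 q of 2.25. In ΔIkE120 cells, the nearest peak was 75.7 kb from the start and the window held none. With *Pax5*, it was thus 1 of the 2 genes with no peak called in the window in ΔIkE120 cells. With flanks of 10 kb, or with the weaker part of each list left out, *Cd22* had no covered bases in either list.

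Set side by side, the windows had fewer peaks and fewer covered bases in ΔIkE120 cells. Of the 17 wt peaks, 12 (70.6%) were overlapped by a ΔIkE120 peak by at least 1 base, against 74.4% of all wt peaks and 51.6% of those with a -log10 q under the list median. In ΔIkE120 cells, 12 of 13 (92.3%) shared at least 1 base with a wt peak, against 86.4% of the whole ΔIkE120 list and 73.5% of those under the list median. These shares are near those of the whole lists, and with so few peaks they are no result about the B lineage genes. Peaks covered 13709 bases (1.35%) of the windows in wt and 10091 (0.991%) in ΔIkE120 cells, a ratio of 0.736. More bases were covered in wt for 8 of 9 genes, against 45.6% of all genes and 66.7% of the 14297 genes with covered bases in either list. This tally counts the region shared by *Vpreb1* and *Igll1* once for each gene. The ΔIkE120 list was the shorter of the pair, and over the 14141 genes with covered bases in wt, the median ratio of covered bases in ΔIkE120 to wt cells was 0.929, with quartiles of 0.802 and 1.04. The median ratio over the 9 genes was 0.609, with the region of *Vpreb1* and *Igll1* (0.508) again counted for each gene. Below the lower quartile of all genes were all but *Cd79a* (0.888) and *Blnk* (1.45). Of those below it, *Pax5* and *Cd22* each had 1 wt peak in the window and none in ΔIkE120 cells, and *Vpreb1* and *Igll1* are 1 region. With so few genes and peaks, these ratios are no result about the B lineage genes. With the 29902 strongest peaks of each list, 12695 bases under 15 peaks were covered in wt, against 10091 under 13 in ΔIkE120 cells, and 6 of 9 genes had more covered bases in wt. In that setting, *Pax5* had no peak in its window in either list, and *Cd79b* had 52 bases more in ΔIkE120 cells. With the weaker part of each list left out, the windows had 9317 covered bases in wt and 6408 in ΔIkE120 cells, and 5 of 9 genes had more in wt. Within the gene bodies alone, 2 genes had more covered bases in wt, and with flanks of 50 kb, *Pax5* and *Cd79a* had 89 and 3 bases more in ΔIkE120 cells.

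**Figure D3:**
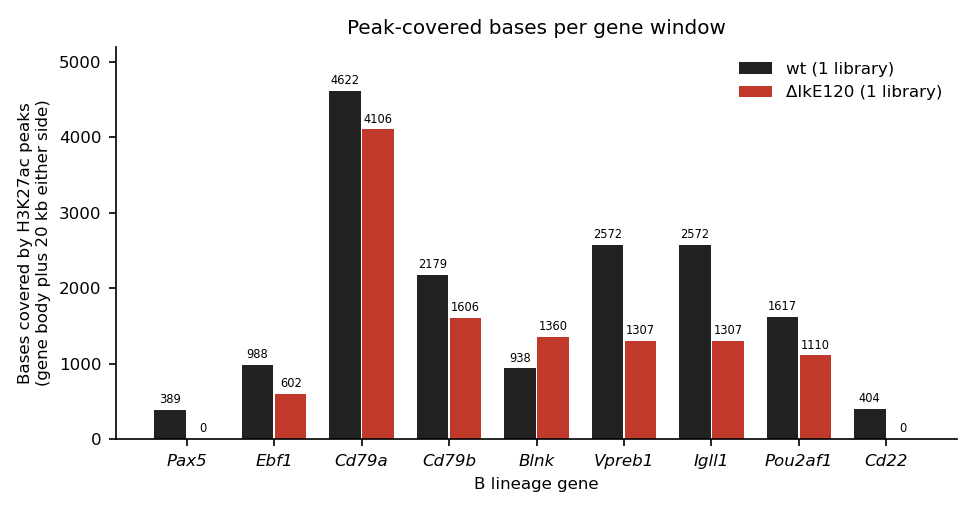
Bases covered by H3K27ac peaks (vertical axis) in the window of each B lineage gene, with wt in black and ΔIkE120 in red (1 library each, no error can be given). Wt is the higher bar for 8 of 9 genes, *Blnk* has 938 in wt against 1360, and *Vpreb1* and *Igll1* show the same peaks.

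As a share of the window, the members' median was 2.44% in wt and 1.67% in ΔIkE120 cells, close to the 1.83% and 1.63% of all genes. The order in wt ran from *Cd79a* (10.4%), *Vpreb1* (6.3%), *Igll1* (5.94%) and *Cd79b* (5.04%) through *Pou2af1* (2.44%) to *Blnk* (0.891%), *Cd22* (0.735%), *Ebf1* (0.23%) and *Pax5* (0.172%). The highest shares belonged to short genes whose windows reach a neighbour with a start peak or, for *Cd79b*, another gene's body, and the lowest to the long genes *Ebf1* and *Pax5*. In ΔIkE120 cells, *Cd79a* was again first at 9.26%, and *Blnk* at 1.29% was above *Ebf1* at 0.14%. With no replicate, it cannot be said which neighbours in this order differ.

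Other genes of the B lineage were also mostly without a start peak. Of 15 further B lineage genes, 4 (26.7%) had a start peak in wt and 2 (13.3%) in ΔIkE120 cells, against 45.0% and 44.3% of all genes. With so few genes, this is no result about the B lineage. The median covered share of the windows of these 15 genes was 2.07% and 1.37%. *Ralgps2*, which codes for an exchange factor of Ral proteins, had the highest -log10 q of them at the start, 19.4 in wt and 19.9 in ΔIkE120 cells. *Cr2*, the complement receptor of mature B cells, had 6.31 and 5.76. *Blk*, a kinase of the Src family, had a start peak in wt alone (7.27), as had *Tnfrsf13c*, the receptor of the survival factor BAFF, at the very limit of calling (1.23). *Blk* had 4089 covered bases in wt and 1152 in ΔIkE120 cells. The remaining 11 genes had no start peak in either list, as had 54.5% of all genes. No peak lay in the window in either genotype for 4 of the 15.

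Genes that B cells share with other lineages mostly had a peak at the start. Of 19 such genes, 13 (68.4%) had a start peak in wt and 13 in ΔIkE120 cells, against 45.0% and 44.3% of all genes. With so few genes, this is no result about shared genes either. The windows of the 19 genes were covered to a median of 5.78% and 4.93%. The 13 genes were *Ikzf1*, *Ikzf3*, *Tcf3*, *Foxo1*, *Plcg2*, *Rag1*, *Rag2*, *Dntt*, *Lef1*, *Cd24a*, *Cd37*, *Bcl6* and *Myb*. *Tcf3*, which codes for the E proteins that act with Ebf1, had the highest -log10 q at the start in wt (23.4, and 20.5 in ΔIkE120 cells). *Ikzf1* itself had 10.6 in wt and 11.6 in ΔIkE120 cells. The other 6, *Il7r*, *Bach2*, *Irf4*, *Irf8*, *Syk* and *Btk*, had no start peak in either list, and the nearest peak to the start of *Il7r*, a receptor gene that T precursors use as well, was 376 kb away in each list. *Spi1* had no strand in the tables used and was left out.

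The other lists set the scale. T lineage windows were covered to a median of 10.3% in wt and 9.61% in ΔIkE120 cells. Of 11 myeloid genes, 2 had a start peak in wt, *Mpo* (-log10 q 2.08) and *Cd14* (1.34), and *Cd14* alone in ΔIkE120 cells (4.44), with median covered shares of 2.3% and 0.542%. *Csf1r*, *Itgam*, *Lyz2* and *Elane* were without one, and *Adgre1*, with no strand in the tables used, was left out. Of 6 NK cell genes, *Gzma* alone had a start peak (2.65 in wt and 2.33 in ΔIkE120 cells) and *Ncr1*, *Klrb1c*, *Klrd1* and *Eomes* had none, at median shares of 0.466% and 0.424%. Of 6 erythroid genes, *Epor* (8.69 and 6.41) and *Klf1* (6.73 and 5.73) had one in both lists and *Gata1*, *Hba-a1*, *Hba-a2* and *Slc4a1* in neither, at 2.51% and 2.14%. None of 8 genes used outside blood had a start peak, among them *Alb*, *Ins2*, *Myod1* and *Neurod1*, and their median share was 0.0% in each list. All 8 genes used in every cell had one in both lists, with the highest values in wt at *Ppia* (24.6, and 22.7 in ΔIkE120 cells) and *Rpl32* (22.7 and 24.1), values of 13.5 and 17.8 at *Gapdh*, and median shares of 6.16% and 5.55%. In wt cells, a start peak was found for 33.3% of the 9 B lineage genes, 16.7% to 33.3% of the genes of the other blood lineages, 95.2% of the T lineage genes and 45.0% of all genes, and no test was run on these shares.

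For each member with covered bases in both lists, the gene outside the 8 windows with the most similar covered bases was sought among genes with a window length within 20%. *Mblac1* was nearest to *Vpreb1* and *Igll1*, with 2570 covered bases in wt and 1288 in ΔIkE120 cells, and like *Igll1* it had a start peak in wt alone. *Abhd10* (1601 and 1111) was nearest to *Pou2af1* among 6227 genes, and *Ap3s2* (932 and 1352) to *Blnk* among 2503. *Prrg2* (4603 and 4125) was nearest to *Cd79a*, *Krt27* (2203 and 1607) to *Cd79b*, and *Fam189a1* (892 and 609) to *Ebf1*. Start peaks were alike in some pairs, as *Abhd10* had them in both lists like *Pou2af1* and *Krt27* in neither like *Cd79b*. They were unlike in others, as *Prrg2* and *Ap3s2* had them in both lists, *Cd79a* and *Blnk* in neither.

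Promoter sequence from RefSeq (GRCm38.p6), from 250 bases before to 50 bases after a start, was matched for 8 of the 9 genes, all but *Cd79b*. CG dinucleotides were counted, since promoters rich in them commonly carry H3K27ac. A start peak in wt was found for 7.38% of 4904 genes with 0 to 4 CG, 24.9% of 2379 with 5 to 9, 59.7% of 3679 with 10 to 19, and 74.2% of 6312 with 20 or more. In ΔIkE120 cells the shares were 6.87%, 23.7%, 59.1% and 73.9%. Over all 21263 promoters the median was 13 CG (quartiles 4 and 24). Most B lineage promoters were poor in CG, with 2 at *Vpreb1* and *Igll1*, 4 at an inner start of *Cd22* (chr7:30878979-30879278, in place of the outer start used above), 7 at *Blnk*, 8 at *Cd79a* and *Pou2af1*, and 9 at the outer *Ebf1* start, while the inner *Ebf1* start had 17. *Pax5* stood apart with 23 CG, more than 71.0% of all promoters, and yet had no peak within 45.0 kb of its start in either list.

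The promoters of 4 genes show this range, each 5′ to 3′ on the strand of the gene, with CG in capitals. The *Pou2af1* promoter lay wholly under a peak in both lists, that of *Ebf1* (outer start) lay within 1 kb of a peak in both lists and that of *Igll1* in wt alone, and that of *Pax5* had the most CG and no peak.
Pou2af1, chr9:51213440-51213739, plus strand: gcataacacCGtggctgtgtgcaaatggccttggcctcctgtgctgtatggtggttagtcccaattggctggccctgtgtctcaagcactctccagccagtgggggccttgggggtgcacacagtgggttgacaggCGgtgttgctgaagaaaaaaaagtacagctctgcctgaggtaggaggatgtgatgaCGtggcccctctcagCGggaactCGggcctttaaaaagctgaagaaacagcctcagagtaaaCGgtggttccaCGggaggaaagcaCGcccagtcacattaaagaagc
Ebf1, chr11:44617850-44618149, plus strand: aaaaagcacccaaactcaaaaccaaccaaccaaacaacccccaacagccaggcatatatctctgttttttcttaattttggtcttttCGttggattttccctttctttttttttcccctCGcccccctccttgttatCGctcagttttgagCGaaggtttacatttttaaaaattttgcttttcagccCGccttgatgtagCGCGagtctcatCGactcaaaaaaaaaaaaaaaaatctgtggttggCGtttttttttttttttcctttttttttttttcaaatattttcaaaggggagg
Igll1, chr16:16863936-16864235, minus strand: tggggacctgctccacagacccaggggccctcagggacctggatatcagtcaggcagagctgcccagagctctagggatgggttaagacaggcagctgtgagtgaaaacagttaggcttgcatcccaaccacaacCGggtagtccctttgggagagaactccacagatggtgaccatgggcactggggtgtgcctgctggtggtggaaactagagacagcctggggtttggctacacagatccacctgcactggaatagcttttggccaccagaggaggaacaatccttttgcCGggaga
Pax5, chr4:44710645-44710944, minus strand: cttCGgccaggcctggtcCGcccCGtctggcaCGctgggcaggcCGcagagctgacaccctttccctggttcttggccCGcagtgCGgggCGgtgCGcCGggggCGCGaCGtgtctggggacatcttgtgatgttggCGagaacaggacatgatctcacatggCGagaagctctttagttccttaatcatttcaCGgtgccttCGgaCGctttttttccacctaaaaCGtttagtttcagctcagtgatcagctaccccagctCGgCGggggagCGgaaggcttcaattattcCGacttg

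These promoters were also searched on both strands for 4 short motifs. TCCCNNGGG, the core bound by EBF1, is found in 7.26% of all promoters, and among the members only the promoter at the inner *Cd22* start had it, at overlapping positions 202 and 203 on opposite strands. TGTGGT, the core bound by RUNX factors, is found in 15.0% of promoters, and was found in those of *Ebf1* (outer start, position 239) and *Igll1* (position 128, on the opposite strand), counted from 1 at the 5′ end. CCGGAAGT, bound by ETS factors (5.15% of promoters), and TATAAA (12.6%) were found in none of the members' promoters. The motifs do not overlap each other in these promoters, apart from the *Cd22* pair. Only exact matches to these letters were counted, so a binding site with other letters is missed. A promoter without a match is therefore not shown to lack a site. A match describes the letters of this stretch, and no binding was measured.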

How the data were processed

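H3K27ac ChIP-seq of wt and ΔIkE120 P5424 cells was used, 1 library each, and the 4C-seq libraries of the series were not used here. The authors deposited a list of broad peaks per library on GRCm38, with a score, a fold enrichment over the caller's background, and -log10 p and -log10 q values. The deposited score is 10 times the -log10 q. The submitters' processing notes name Bowtie2 2.3.4.3 and MACS2 2.1.1, and the use of the input in calling is not given in the sources used here. Gene positions came from RefSeq (GRCm38.p6), and strands from RefSeq for 17274 genes and, by symbol, from GENCODE M1 for 3649 (96.7% of protein-coding genes in all). The position of IkE120 was the interval for chromatin accessibility in the study's methods, not the ends of the deletion. Peaks were counted by an overlap of 1 base, covered bases were summed within windows, and the overlap code was tested on 40 simulated lists with 0 differences. No test was run.

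Members and gene lists were chosen with earlier results of these data known. Named beside the members were genes that start in their windows, further B lineage genes with a start peak, all shared genes, and up to 4 genes with the highest -log10 q and 4 without a start peak of every other list. Some genes of the lists are not reported by name here. *Cd2* and *Zcchc7* were named after their values were seen. Alternatives were flanks of 10 kb and 50 kb or none, start windows of 500 bases and 2.5 kb, at least 200 covered bases at the start, stricter or equally long peak lists, leaving out peaks at other genes' starts, and an overlap of 50%. Python 3.11.15, numpy 2.4.6, pandas 2.3.3 and matplotlib 3.10.9 were used.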

Additional observations from a re-analysis of the deposited data

How the results depend on the processing

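With 1 library per genotype and no depth known, no value has an error, and a peak near the calling limit may pass in 1 list and miss in the other. With flanks of 50 kb, 30443 bases under 37 peaks were covered in wt and 27578 under 33 peaks in ΔIkE120 cells. With gene bodies alone, 4 genes had a peak in wt and 3 in ΔIkE120 cells, with 1469 bases under 4 peaks and 1429 bases under 3 peaks, and 2 genes had more covered bases in wt. With peaks from the median -log10 q of their list upwards, start peaks were left at 1 gene in each genotype. In that setting, 5 genes had a peak in the window in wt and 6 in ΔIkE120 cells, so the direction of this count turned. There, 7 peaks were left in wt and 6 in ΔIkE120 cells, 6408 bases were covered in ΔIkE120 cells, and 5 genes had more covered bases in wt. Start windows of 500 bases also left 1 gene in each genotype. Without peaks at other genes' starts, peaks covered 9470 bases in wt, against 6477 in ΔIkE120 cells, and 7 genes had more covered bases in wt. These settings count more or fewer bases or peaks than the main one. The difference of ΔIkE120 minus wt covered bases turned for *Pax5* to 89 with flanks of 50 kb, and for *Ebf1* to 197 in the gene body alone and to 349 with the stricter peaks. It also turned for *Cd79a*, to 3 with flanks of 50 kb, and for *Cd79b*, to 52 with lists of equal length. With the stricter peaks, *Pax5*, *Blnk* and *Cd22* had no covered bases in either list, nor had *Cd22* with flanks of 10 kb or *Pax5* with lists of equal length. The cause of these shifts was not tested.

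Of 45 values of single genes under the alternatives, 21 stayed within 1.5 fold, 19 moved further and 5 reversed. Counts of start peaks with every RefSeq start of a gene, an alternative chosen after seeing the data, were 3 in wt and 2 in ΔIkE120 cells, as before. No paired analysis was possible because each genotype has 1 library and no test was run.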
